A study of Mus musculus with 4 samples.

Results

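The genes of the axonemal dyneins and of other parts of the motile cilium were examined for open chromatin at their ends in the paraventricular hypothalamic nucleus (PVH). Membership followed from the gene symbol alone. A protein-coding RefSeq gene of the mm10 build was a member when its symbol began with Dnah, Dnai, Dnaaf, Cfap, Rsph, Drc or Spag followed by a number, or when it was Foxj1 or Mlf1. The rule gave 80 members among 21887 protein-coding genes. The Dnai prefix matched no symbol in the gene table. The members comprised 15 Dnah, 7 Dnaaf, 7 Rsph, 3 Drc, 34 Cfap and 12 Spag genes besides Foxj1 and Mlf1.

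The study profiled open chromatin by ATAC-seq, an assay in which a transposase cuts accessible DNA and tags the fragments for sequencing, and asked whether loss of Otp in the adult leaves the chromatin near its targets less open. Otp is a homeodomain transcription factor found in neurons of the hypothalamus. All 4 libraries came from PVH tissue of 12-week-old mice of genotype Otp fl/fl; Ai14, in which Otp is flanked by loxP sites and Ai14 is a Cre-dependent fluorescent reporter. The control group received AAV-GFP (2 libraries) and the other group AAV-Cre (2 libraries), an adeno-associated virus carrying the recombinase, and tissue was dissected 4 weeks after injection. The labels name no promoter for the virus and no sorting of infected nuclei, so how many of the nuclei came from infected cells is unknown, and they do not say that each library is an animal of its own, so differences within a group may be technical.

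A motile cilium is a beating extension of the cell surface built on a microtubule core, the axoneme. Dynein heavy chains form the outer and inner arms that slide neighbouring microtubule doublets, radial spokes and the nexin-dynein regulatory complex pass signals to the arms, and the Dnaaf proteins put the arms together in the cytoplasm. Foxj1, a forkhead factor, and factors of the RFX family, which bind a motif called the X-box, switch the programme on. In the hypothalamus the ependymal cells that line the third ventricle beside the PVH carry beating cilia, whereas most neurons carry a solitary primary cilium that lacks dynein arms.

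The values were peak lists, with no read counts, so sequencing depth is unknown. AAV-GFP 1, AAV-GFP 2, AAV-Cre 1 and AAV-Cre 2 listed 57682, 34100, 23384 and 26612 peaks. Peaks of the 4 libraries that touched by at least 1 bp were merged into 67299 regions, and a gene had a region when one overlapped the window of 1 kb to each side of either end of the gene. A gene with a region in the 2 AAV-GFP libraries and in no AAV-Cre library was called control-specific, and a gene with the reverse pattern Cre-specific. A missing peak means that none passed the authors' threshold, not that the chromatin was closed. At Otp itself, AAV-GFP 1, AAV-GFP 2, AAV-Cre 1 and AAV-Cre 2 had peaks in 2, 2, 1 and 2 of 4 regions, and peak lists do not show which exons were deleted. Among 17 neuron markers, 14, 13, 8 and 9 had a region in the same order of libraries.

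Promoter sequences are given for 6 members on which the results below turn. Mlf1, Drc7 and Cfap52 were called control-specific, and Dnah11 was the Cre-specific member. Cfap298 and Cfap20dc had a region in all 4 libraries and carry complete X-boxes. Each printed sequence runs from 250 bases before to 50 bases after the listed transcription start. It reads 5′ to 3′ in the direction of transcription, from RefSeq on GRCm38.p6, which is mm10. Capitals mark every match to the motifs searched on both strands: GTTGCC, the X-box core; the complete X-box, read as GTTNCC, a gap of 0 to 3 bases and GGNAAC, which contains cores; and GTAAACA, a forkhead site. 
Mlf1 (chr3:67373847-67374146, plus strand): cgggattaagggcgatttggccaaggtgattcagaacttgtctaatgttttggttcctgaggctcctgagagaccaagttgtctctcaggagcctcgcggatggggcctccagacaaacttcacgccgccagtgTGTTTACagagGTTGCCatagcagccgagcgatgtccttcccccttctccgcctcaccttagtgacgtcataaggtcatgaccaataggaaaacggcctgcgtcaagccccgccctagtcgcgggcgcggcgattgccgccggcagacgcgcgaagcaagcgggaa
Drc7 (chr8:95054853-95055152, plus strand): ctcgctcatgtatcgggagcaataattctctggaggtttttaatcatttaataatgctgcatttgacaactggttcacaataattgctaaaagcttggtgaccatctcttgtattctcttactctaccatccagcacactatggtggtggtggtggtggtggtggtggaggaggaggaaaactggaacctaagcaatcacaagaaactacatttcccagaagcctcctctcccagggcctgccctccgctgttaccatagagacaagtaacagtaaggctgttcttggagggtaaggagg
Cfap52 (chr11:67965593-67965892, minus strand): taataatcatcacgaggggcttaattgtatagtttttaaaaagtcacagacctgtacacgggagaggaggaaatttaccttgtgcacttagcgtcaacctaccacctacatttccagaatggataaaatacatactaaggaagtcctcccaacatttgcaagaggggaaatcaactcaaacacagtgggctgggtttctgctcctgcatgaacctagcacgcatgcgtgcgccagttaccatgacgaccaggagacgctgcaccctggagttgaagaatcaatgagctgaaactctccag
Dnah11 (chr12:118198994-118199293, minus strand): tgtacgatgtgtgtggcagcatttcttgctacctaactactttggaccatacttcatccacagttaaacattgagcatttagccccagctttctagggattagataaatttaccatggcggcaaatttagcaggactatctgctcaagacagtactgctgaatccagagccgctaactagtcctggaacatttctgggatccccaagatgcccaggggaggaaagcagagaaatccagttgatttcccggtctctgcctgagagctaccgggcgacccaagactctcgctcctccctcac
Cfap298 (chr16:90934800-90935099, minus strand): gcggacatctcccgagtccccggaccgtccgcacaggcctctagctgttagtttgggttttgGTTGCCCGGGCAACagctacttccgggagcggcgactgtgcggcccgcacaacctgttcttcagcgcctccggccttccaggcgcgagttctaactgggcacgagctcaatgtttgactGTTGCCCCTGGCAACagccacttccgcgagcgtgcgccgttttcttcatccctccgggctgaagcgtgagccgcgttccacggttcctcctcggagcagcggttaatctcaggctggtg
Cfap20dc (chr14:8666241-8666540, minus strand): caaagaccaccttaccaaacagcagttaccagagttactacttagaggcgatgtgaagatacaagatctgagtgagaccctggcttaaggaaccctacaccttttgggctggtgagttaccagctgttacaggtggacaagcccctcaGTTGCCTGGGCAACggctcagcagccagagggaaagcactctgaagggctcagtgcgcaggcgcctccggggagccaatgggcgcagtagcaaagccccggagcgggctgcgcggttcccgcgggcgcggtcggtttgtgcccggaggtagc
In Mlf1 a forkhead match on the reverse strand begins 116 bases before the start and an X-box core 105 bases before it. Cfap298 holds complete X-boxes at 188 and 69 bases before its start, and Cfap20dc holds one at 102 bases. Dnaaf6 and Dnaaf6b, not printed here, also hold one, at 59 and 7 bases before their starts. Neither had a region at a gene end or at its listed start in any library. No searched motif lies in the Drc7, Cfap52 or Dnah11 windows, which says only that these letters are not there.

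Of the 80 members, 32 (40%) had a region in all 4 libraries and 22 (27.5%) had none in any library. Over all protein-coding genes these shares were 42.1% and 41.9%. Control-specific calls fell on 6 members (7.5%), against 2.98% of all genes, and a Cre-specific call on 1 member (1.25%), against 0.0731% of all genes. The remaining 19 members had other patterns: 14 had a region in 3 libraries, of which 7 lacked AAV-Cre 1, 6 lacked AAV-Cre 2, 1 lacked AAV-GFP 2 and 0 lacked AAV-GFP 1, and 3 had a region in AAV-GFP 1 alone.

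By library, 57 members had a region in AAV-GFP 1, 51 in AAV-GFP 2, 40 in AAV-Cre 1 and 43 in AAV-Cre 2. As shares these were 71.3%, 63.8%, 50% and 53.8%, beside 56.4%, 52.5%, 46.1% and 47.5% of all protein-coding genes. Each AAV-GFP library thus held more members than either AAV-Cre library, in the order of the lengths of the lists. The shares of all genes had the same order over a narrower range. Of 51 members with a region in both AAV-GFP libraries, 6 (11.8%) had none in either AAV-Cre library, against 5.8% of 11244 genes. With 2 libraries against 2 no comparison of groups can reach an exact p below 0.333, and the members share the same 4 lists, so these shares describe these libraries and carry no test. In bulk tissue, fewer cells of a type and less open chromatin per cell cannot be told apart.

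When each list was reduced to its 23384 strongest peaks, the length of the shortest list, the gap between groups narrowed. Members with a region then numbered 44, 43, 39 and 39 in AAV-GFP 1, AAV-GFP 2, AAV-Cre 1 and AAV-Cre 2. As shares these were 55%, 53.8%, 48.8% and 48.8%, beside 46.2%, 47.4%, 46% and 45.4% of all genes, so the groups lay closer together in all genes than in the members. Control-specific members numbered 4, against 1.13% of all genes, and Cre-specific members 2, against 0.69%. Mlf1, Dnah3 and Drc7 stayed control-specific and Cfap45 joined them, while Cfap52, Cfap54 and Cfap73 lost control peaks of their own to the shorter lists. Dnah11 stayed Cre-specific and was joined by Cfap126. The control-specific count changed with the libraries used: it was 12 without AAV-Cre 1 and 13 without AAV-Cre 2. It was 11 when only peaks with −log10 q of at least 5 were kept. With a single AAV-Cre list left, the call is easier to meet for any gene. Counts over all genes are not given for these settings, so the rise cannot be read as particular to the members.

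**Figure D1:**
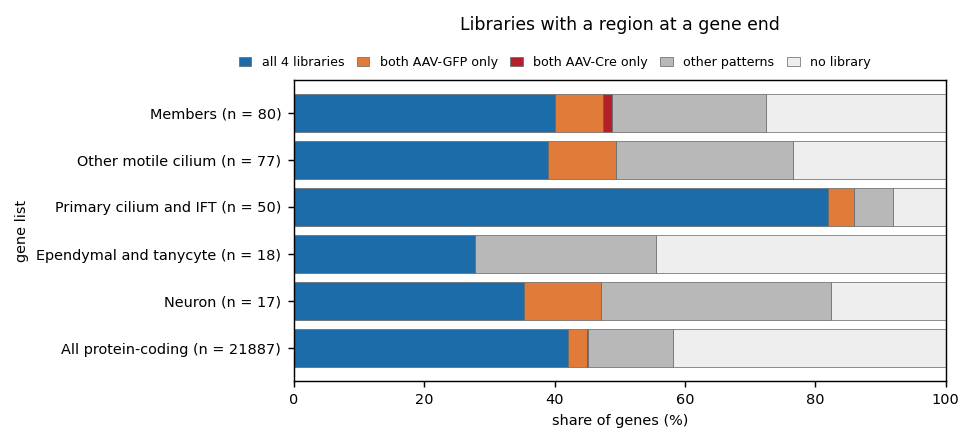
Share of genes (horizontal axis, percent) with a gene-end region in all 4 libraries, in both AAV-GFP libraries only, in both AAV-Cre libraries only, in another pattern or in no library, for the members, for gene lists and for all protein-coding genes. The members have 40% in all 4 libraries, close to the 42.1% of all genes, and a smaller share with no region, 27.5% against 41.9%.

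Foxj1, the master factor of motile ciliogenesis, had a region at its upper end on chromosome 11 in every library. Fold enrichment, the authors' ratio of signal to background at a peak, was 5.47 in AAV-GFP 1, 7.42 in AAV-GFP 2, 4.38 in AAV-Cre 1 and 6.45 in AAV-Cre 2. The groups overlapped, since AAV-Cre 2 lay above AAV-GFP 1. Its rank percentile, where 0 is the strongest and 100 the weakest peak of a library's own list by −log10 p, was 32.7, 22.2, 78.6 and 30.8 in the same order. The region (chr11:116335218-116335958) also lies at an end of Rnf157, so it cannot be assigned to Foxj1 alone. A further peak at the lower end of Foxj1 was called in AAV-GFP 2 only, at a fold of 4.69.

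Mlf1, a gene of ciliated cells first found in a leukaemia translocation, gave the strongest control-specific region. Its region (chr3:67373913-67374290) spans the listed start, and its strongest summit lies 74 bp before the start. Fold enrichment was 10.7 in AAV-GFP 1 and 10.6 in AAV-GFP 2, and neither AAV-Cre list held a peak there. The rank percentiles of 17.5 and 19.8 place it in the stronger part of both control lists, ahead of every other control-specific member. The forkhead match and the X-box core printed above both lie inside this region.

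The other 5 control-specific members had lower folds. Dnah3, an inner-arm heavy chain, had folds of 7.92 and 5.82 in AAV-GFP 1 and 2, in a narrow region of 170 bp. Drc7, of the nexin-dynein regulatory complex, had 6.61 and 5.33 in a region that spans its start. Cfap52, a protein inside the microtubule doublets, had 6.26 and 4.76 in a region 805 bp before its start that also lies at an end of Stx8. A further Cfap52 region spans its start and had a peak in AAV-GFP 1 only, at a fold of 5.83. The promoter printed for Cfap52 overlaps only that further region. Cfap54, of the central apparatus, had 5.38 and 4.43. Cfap73, which helps anchor an inner arm, had 4.92 and 5.95. In AAV-GFP 2 the percentiles of these 5 genes lay between 50 for Cfap73 and 81.1 for Cfap52, that is, in the weaker part of that list.

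Dnah11, an outer-arm heavy chain, was the reverse case. It had folds of 5.93 in AAV-Cre 1 and 6.63 in AAV-Cre 2 and no peak in either AAV-GFP list, although those lists are longer. The region (chr12:118198577-118199038) has its strongest summit 123 bp inside the listed start, and it touches the last bases of the promoter printed above without reaching the start itself. Its percentiles, 53.7 and 43.2, lie near the middle of the AAV-Cre lists.

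**Figure D2:**
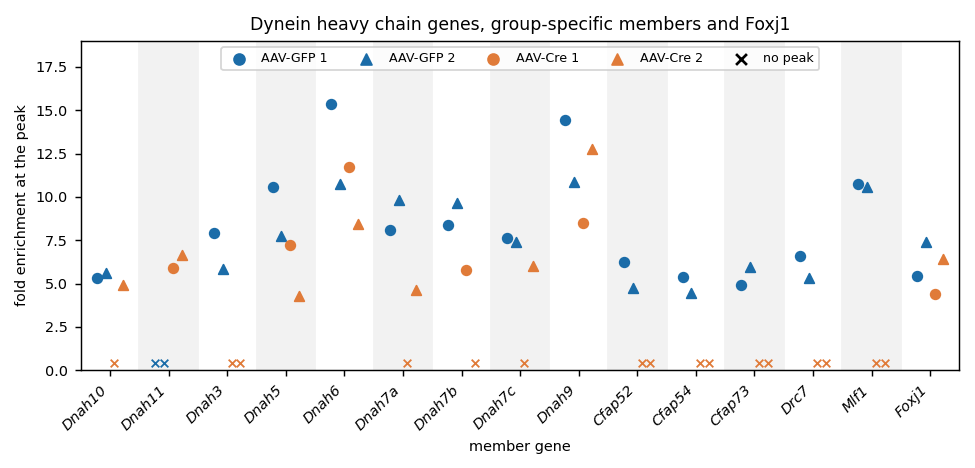
Fold enrichment at the peak (vertical axis, the authors' ratio) in each library for the 9 Dnah genes with a region, the other control-specific members and Foxj1. Blue marks AAV-GFP, orange AAV-Cre, circles replicate 1 and triangles replicate 2, and a cross at the bottom marks a library with no peak. Mlf1 has control folds of 10.7 and 10.6 and no AAV-Cre peak, and Dnah11 is the only gene shown with crosses in both AAV-GFP libraries.

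Among the 15 dynein heavy chain genes, 3 had a region in all 4 libraries, 1 was control-specific, 1 Cre-specific, 4 mixed and 6 without a region. The shares in all 4 libraries and without a region were 20% and 40%, against 42.1% and 41.9% of all genes. Control-specific and Cre-specific shares were 6.67% each, against 2.98% and 0.0731%. The Dnah genes in all 4 libraries were Dnah5 and Dnah9, which encode outer-arm chains, and Dnah6, an inner-arm chain. Dnah9 had folds of 14.4, 10.9, 8.47 and 12.8 in AAV-GFP 1, AAV-GFP 2, AAV-Cre 1 and AAV-Cre 2. Dnah6 had 15.4, 10.7, 11.7 and 8.43. In both genes the AAV-GFP and AAV-Cre values overlapped.

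Dnah5 had folds of 10.6, 7.72, 7.2 and 4.27 in the same order, so both control values exceeded both AAV-Cre values. The Dnah5 region lies at the lower end of the annotated gene, with its strongest summit at −48860 bp relative to the listed start, and no region overlapped the window at that start. The percentiles of the Dnah5 region were 14.3, 33.3, 33.1 and 91.9 in AAV-GFP 1, AAV-GFP 2, AAV-Cre 1 and AAV-Cre 2, so its groups overlapped by rank.

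The 3 inner-arm genes Dnah7a, Dnah7b and Dnah7c, all on chromosome 1 with Dnah7b and Dnah7c side by side, each lacked a peak in a single AAV-Cre library. Dnah7a had 8.11 and 9.82 in the controls against 4.61 in AAV-Cre 2. Dnah7b had 8.36 and 9.67 in the controls and 5.76 in AAV-Cre 1. Dnah7c had 7.62 and 7.4 in the controls and 6.02 in AAV-Cre 2. In all 3 genes the controls lay above the AAV-Cre value that was called. These genes are close copies, as are Rsph3a and Rsph3b, Spag6 and Spag6l, Dnaaf6 and Dnaaf6b, and Spag11a and Spag11b, and the sources used here do not give how reads that fit several copies were placed, so values for such genes are uncertain.

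Dnah10, an inner-arm chain, had folds of 5.32 and 5.64 in the controls and 4.93 in AAV-Cre 2, in a region that also lies at an end of Atp6v0a2. Dnah1, Dnah2, Dnah8, Dnah12, Dnah14 and Dnah17 had no region at either end. Dnah8 and Dnah17 are outer-arm chains best known from sperm. Over the 8 Dnah genes with a region in each control, the median fold was 8.23 in AAV-GFP 1 and 8.7 in AAV-GFP 2, against 7.2 over 5 genes in AAV-Cre 1 and 6.02 over 7 genes in AAV-Cre 2. These medians are over different genes in each library.

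**Figure D3:**
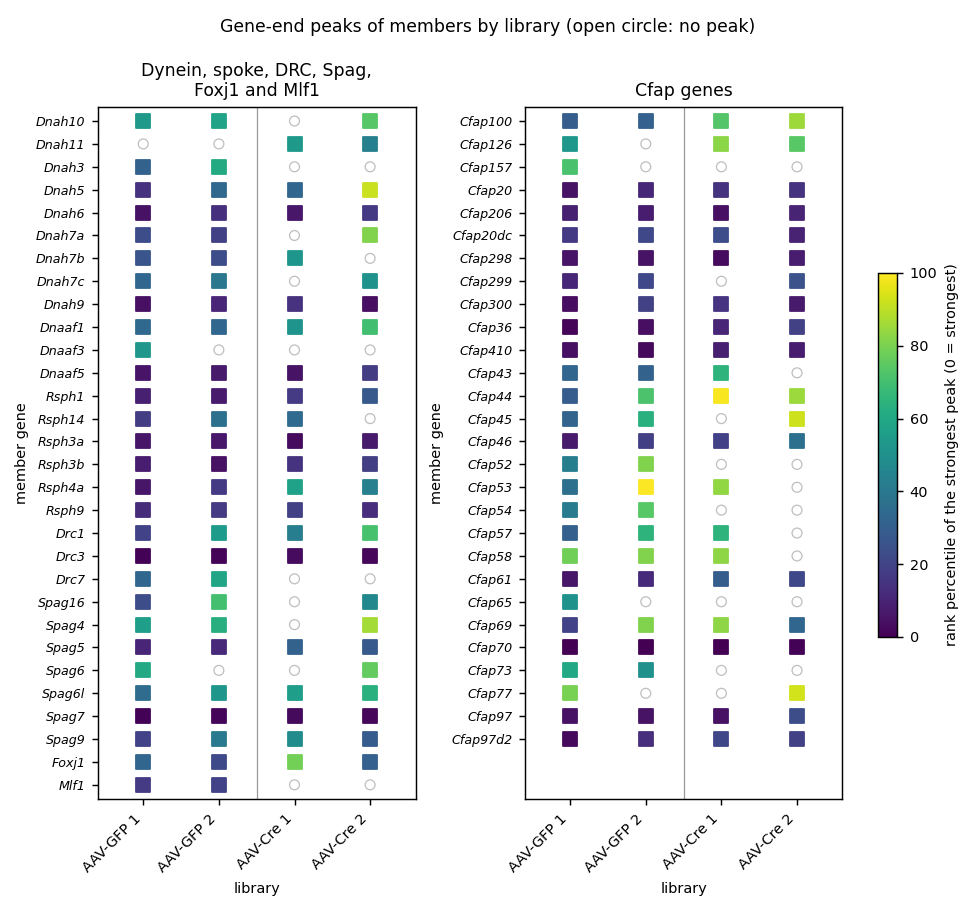
Rank percentile of the strongest gene-end peak (colour, 0 strongest and 100 weakest in the library's own list) for the 58 members with a region in any library, by library (horizontal axis). Open circles mark no peak. Open circles are more frequent in the AAV-Cre columns, where 40 and 43 members have a region, than in the AAV-GFP columns, where 57 and 51 have one.

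Among the arm assembly factors, the share without a region depended on the window used. Of 7 Dnaaf genes, Dnaaf1 and Dnaaf5 had a gene-end region in all 4 libraries and Dnaaf3 in AAV-GFP 1 only. The other 4 (57.1%) had none, against 41.9% of all genes. Both shared regions also lie at an end of another gene, Hsdl1 for Dnaaf1 and Prkar1b for Dnaaf5. At listed starts, 2 of 6 Dnaaf genes had no region, against 7 of 14 Dnah genes and 40.5% of all genes with a listed start. There Dnaaf2 and Dnaaf4, which lacked a gene-end region, had a region in all 4 libraries. Dnaaf1 had folds of 6.45, 6.98, 5.63 and 4.88 in AAV-GFP 1, AAV-GFP 2, AAV-Cre 1 and AAV-Cre 2.

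Among the families of 7 or more genes, the radial spoke family had the largest share of genes with a gene-end region in all 4 libraries. Of 7 Rsph genes, 5 (71.4%) had a region in all 4 libraries, against 42.1% of all genes. Rsph14 lacked AAV-Cre 2 and Rsph6a, a sperm spoke protein, had none. Rsph4a, of the spoke head, had folds of 16.3 and 10.7 in the controls and 5.68 and 6.63 in AAV-Cre 1 and 2. Its 2 groups did not overlap, and its percentiles went from 5.83 and 16.8 in the control lists to 57.6 and 43.2 in the AAV-Cre lists. Rsph3a, of the spoke stalk, did not follow it: its folds were 10.6, 12.2, 12.7 and 9.85 in AAV-GFP 1, AAV-GFP 2, AAV-Cre 1 and AAV-Cre 2. Rsph9, another spoke head protein, was level across the libraries, at 9.14, 8.85, 8.36 and 9.05, and its groups overlapped. Rsph3b had the widest member region, at 1193 bp, followed by Spag7 at 1132 bp and Dnah7a at 1086 bp.

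All 3 Drc genes, which encode subunits of the regulatory complex between doublets, had a region in both controls. Drc1 had folds of 8.45, 5.59, 6.37 and 5.1 in AAV-GFP 1, AAV-GFP 2, AAV-Cre 1 and AAV-Cre 2, and its groups overlapped. Drc3 had 17, 16.1, 11.4 and 12.6, with both controls above both AAV-Cre values, in a region shared with an end of Tom1l2. Drc7 was control-specific.

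Of the 34 Cfap genes, a mixed set of cilia and flagella associated proteins, 15 had a region in all 4 libraries, 3 were control-specific, 10 mixed and 6 without a region. As shares, 44.1% had all 4 libraries, 8.82% were control-specific and 17.6% had no region, against 42.1%, 2.98% and 41.9% of all genes. The median fold of the Cfap genes was 8.57 over 28 genes in AAV-GFP 1 and 8.94 over 24 in AAV-GFP 2. It was 7.83 over 20 in AAV-Cre 1 and 7.81 over 19 in AAV-Cre 2. In Cfap298 and Cfap44, each with a region in all 4 libraries, a further region at the gene end had peaks in the controls only. At the lower end of Cfap298 the folds there were 5.53 and 7.86, and in Cfap44 they were 5.38 and 4.75. Cfap97 counted as shared only because an AAV-GFP 1 peak that reaches into its window joined it to peaks of the other 3 libraries outside the window.

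Several Cfap genes with known places in the axoneme had mixed or shared patterns. Cfap45, a protein inside the doublets, had folds of 7.11 and 5.49 in the controls, no peak in AAV-Cre 1 and 4.11 in AAV-Cre 2, where it ranked near the end of the list at a percentile of 92.5. Cfap43, which forms the inner-arm tether with Cfap44, had 7.71, 8.45 and 5.39 in AAV-GFP 1, AAV-GFP 2 and AAV-Cre 1 and none in AAV-Cre 2. Its promoter holds a forkhead match and no X-box core. In these genes the AAV-Cre library that lacked the peak was not the same.

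Cfap126, which also lies inside the doublets, differed from them in lacking AAV-GFP 2, with folds of 4.54, 4.14 and 4.22 in the other 3 libraries. Cfap20, of the junction between doublet tubules, had 11.3, 9.43, 7.99 and 7.81 in AAV-GFP 1, AAV-GFP 2, AAV-Cre 1 and AAV-Cre 2, with both controls above both AAV-Cre values, and its promoter holds both an X-box core and a forkhead match. Cfap46, of the central apparatus, had a pair of adjacent regions in all 4 libraries, the stronger with folds of 10, 7.88, 7.67 and 5.33. In Cfap46, too, the control values were above the AAV-Cre values, although AAV-GFP 2 and AAV-Cre 1 were close.

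Of the 12 Spag genes, 4 (33.3%) had a region in all 4 libraries, 3 were mixed and 5 (41.7%) had none. The shares of all genes were 42.1% in all 4 libraries and 41.9% without a region. Spag6, Spag16 and Spag17 encode central apparatus proteins, and Spag1 serves arm assembly. Spag6 had peaks in AAV-GFP 1 and AAV-Cre 2, Spag16 lacked AAV-Cre 1, and Spag1 and Spag17 had none. Some Spag genes are best known outside the axoneme, for example Spag5, a spindle protein, and Spag9, a kinase scaffold. Without Spag4, Spag5, Spag7, Spag9, Spag11a and Spag11b, 29 of 74 members had a region in all 4 libraries, 6 were control-specific, 1 was Cre-specific and 20 had none. Spag4, whose protein has been described at sperm microtubules including the axoneme, was mixed and so enters none of these counts.

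The strongest member regions shared by all 4 libraries lay beside other protein-coding genes in 4 of 6 cases. Cfap70, an outer-arm associated protein, led with a mean percentile of 0.328 and folds of 17.5, 18.3, 16.9 and 14. That region lies at the 3′ end of Cfap70, at an end of Mrps16, a mitochondrial ribosome gene. At the start end of Cfap70 the region was weaker and absent from AAV-Cre 1, with folds of 4.83, 5.55 and 5.31 in the other 3 libraries. Drc3 (mean percentile 1.5, beside Tom1l2), Spag7 (1.55, beside Camta2) and Cfap298 (5.21, beside Synj1, a synaptic phosphatase gene) followed. Rsph3a (5.46) and Cfap410 (5.79), with no other protein-coding gene end beside them, completed the strongest 6, and the Rsph3a region overlaps the noncoding gene Gm1604a. In all, 16 members had a region that also lay at an end of another gene. Without them, 21 of 64 members (32.8%) had a region in all 4 libraries. Only members with a region can be left out in this way. The share without a region therefore rose by construction, from 27.5% to 34.4%. The same filter is not given for all genes, so the share of 32.8% cannot be set beside theirs.

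At the weak end of the shared regions were Cfap44, with a mean percentile of 71.4, the upper-end region of Cfap206 (55.3), Spag9 (54.9), Cfap100 (54.6), Cfap69 (54.2) and Spag6l (51.7). Cfap44, part of the tether of an inner arm, had folds of 6.89, 4.73, 3.48 and 4.31 in AAV-GFP 1, AAV-GFP 2, AAV-Cre 1 and AAV-Cre 2. Cfap69 varied within both groups, with control folds of 9.33 and 4.76 and AAV-Cre folds of 4.58 and 7.12. No ordering by group is visible in Cfap69.

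Across the 36 member regions with a peak in all 4 libraries, the mean percentile in the AAV-Cre lists minus that in the AAV-GFP lists had a median of 12.3 (SD 14.6 over the regions). A positive difference means a weaker rank in AAV-Cre. The exact permutation test over the 4 libraries, 2-sided, gave p = 0.333, the smallest that 3 splits allow. The difference was positive in 32 of 36 regions (88.9%), and over all 8036 gene-end regions of the same kind in 88.1%, with a median of 9.16. Percentiles from lists of different length do not by themselves show a change in accessibility. Ranked only among the 14634 regions present in all 4 libraries, the median difference was 2.73 for members and 1.15 for all gene-end regions. In lists of equal length it was 0.417 over 31 member regions.

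Both control ranks were stronger than both AAV-Cre ranks in 20 of 36 member regions (55.6%), against 51.1% of all such gene-end regions. The reverse order occurred in 0 of 36, against 2.39%. The member shares are near those of all genes.

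In the libraries' own lists, which differ in length, the difference was largest in Cfap100 (49.1), the upper-end region of Cfap206 (42.2), Cfap44 (41.5), Rsph4a (39.1) and Dnah5 (38.7). Cfap100, which anchors an inner arm together with Cfap73, had folds of 7.08 and 7.16 in the controls and 4.72 and 4.3 in AAV-Cre 1 and 2. Both control values were above both AAV-Cre values. Cfap73, its partner, was control-specific. Only 4 member regions were stronger on average in the AAV-Cre lists: Cfap20dc (−2.63), the lower-end region of Cfap206 (−1.26), Rsph3a (−1.08) and Cfap300 (−0.579). Ranked among the shared regions alone, 12 of the 36 were stronger in AAV-Cre, and the order of the largest differences changed. Rsph4a (41.3) and the lower-end region of Spag5 (25.1) then led. Cfap100 stood at 22, the upper-end region of Cfap206 at 19.9, Dnah5 at 15.9 and Cfap44 at 12.1. Cfap20dc had folds of 10.2, 10, 8.2 and 11.3, so its groups overlapped. The ends of Cfap206 thus stood at opposite sides of the list of differences, and its lower-end region also lies at an end of Slc35a1.

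**Figure D4:**
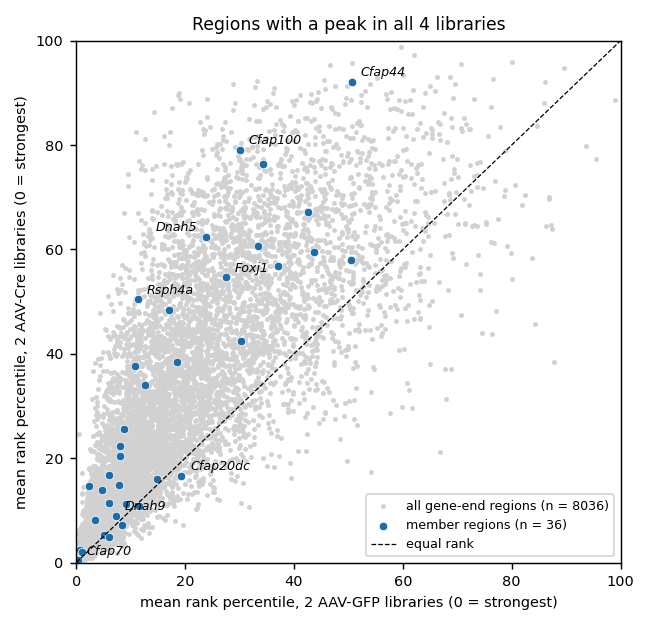
Mean rank percentile in the 2 AAV-GFP lists (horizontal) and in the 2 AAV-Cre lists (vertical) for the 36 member regions with a peak in all 4 libraries (blue) and for all 8036 such gene-end regions (grey), with 0 the strongest. Most points of both colours lie above the line of equal rank, 32 of 36 among the members, and Cfap100, Cfap44, Rsph4a and Dnah5 lie farthest above it among the labelled genes.

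Most shared member regions lay at transcription starts, which the choice of windows at gene ends favours. Their median width was 701 bp, close to the 718 bp of all gene-end regions in 4 libraries, and the other member regions were narrower at the median. A transcription start and strand were listed for 65 members, which had 60 regions. Of these 51 lay within 1 kb of a start and 39 spanned one. Among the 31 regions shared by all 4 libraries 25 spanned a start, and among the 29 others 14 did. The strongest summit of the 31 shared regions lay a median of 85 bp from the start, and of the 27 within 1 kb of a start a median of 58 bp. Positions relative to starts are not given here for the regions of all genes, so they are not a trait of the members.

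**Figure D5:**
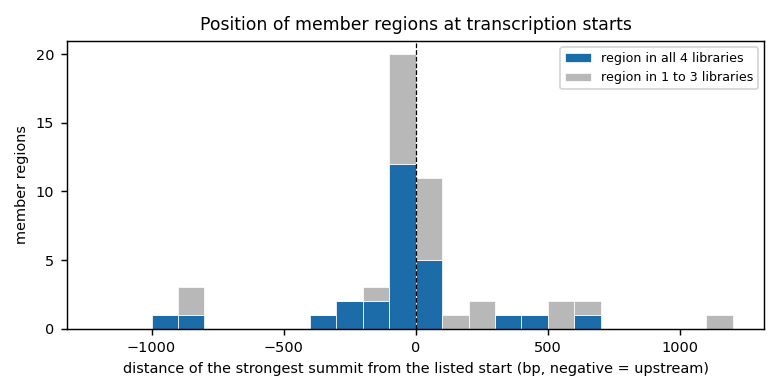
Distance of the strongest summit from the listed transcription start (horizontal axis, bp, negative upstream) for the 51 member regions within 1 kb of a start, stacked by whether the region had a peak in all 4 libraries (blue) or in 1 to 3 (grey). The bars on either side of 0 are the highest, and the 27 shared regions plotted have a median distance of 58 bp.

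For some members the listed start lies inside the annotated gene, away from its ends, and the gene-end window misses it. Of the 22 members with no gene-end region, 19 had a listed start. With a window of 1 kb around that start, 4 had a region in all 4 libraries (Cfap74, Cfap99, Dnaaf2 and Dnaaf4), 2 in some libraries (Cfap161 and Cfap221) and 13 still had none. Cfap99 had folds of 13.2, 15.1, 11.4 and 12.1 in AAV-GFP 1, AAV-GFP 2, AAV-Cre 1 and AAV-Cre 2, in a region also at an end of Zfyve28. Cfap74, a central apparatus protein, had 10.6, 8.1, 5.55 and 7.09, with both controls above both AAV-Cre values. Cfap161, a protein inside the doublets, had 6.99 and 13.2 in the controls, no peak in AAV-Cre 1 and 6.24 in AAV-Cre 2.

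With start windows, 30 of 65 members (46.2%) had a region in all 4 libraries, against 44.4% of 17492 genes with a listed start. The count of control-specific members was 3, namely Mlf1, Drc7 and Cfap52 (4.62%, against 2.85%), and Dnah11 remained the Cre-specific member (1.54%, against 0.0457%). Dnah3, Cfap54 and Cfap73 have no listed start and did not enter. Of the 22 members without a gene-end region, 14 had a region elsewhere inside the gene, and in 8 of these a region was shared by all 4 libraries. The other 8 members had no region anywhere between their ends.

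The X-box core GTTGCC was present in 28 of the 70 listed promoters of members (40%), against 12.6% of 21263 protein-coding promoters of the same length. The longer form GTTGCCATG was in 4 promoters (5.71%) against 0.687%, and the complete X-box in 4 (5.71%) against 0.762%. The forkhead site GTAAACA was in 4 (5.71%) against 3.01%. Both listed promoters of Cfap74, which overlap, count for the longer form, and the close copies Dnaaf6 and Dnaaf6b both count for the complete X-box. Median GC content was 56.2% in member promoters and 56.3% in all. Among other motile cilium genes 45% of promoters held the core, and among genes of the primary cilium and intraflagellar transport 36% did.

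The core was in 42.9% of promoters of members with a gene-end region in all 4 libraries and in 40% of those of members with none. Of the 28 member promoters with the core, 15 overlapped a region of all 4 libraries, 8 a region of 1 to 3 libraries and 5 no region. Of the 42 without it, the counts were 15, 14 and 13. No test was made of these shares, since promoters are not replicates.

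A list of 77 other motile cilium genes outside the symbol rule, not all of them particular to motile cilia, showed a like distribution. Dynll1, Ruvbl1, Plk4, Cep152, E2f4 and E2f5 are such wider genes, and each had a region in all 4 libraries. The list was not counted without them. In that list 30 genes (39%) had a region in all 4 libraries, against 42.1% of all genes. Control-specific calls fell on 8 (10.4%), against 2.98%, and 18 (23.4%) were without a region, against 41.9%. The list held 0 Cre-specific and 21 mixed genes. The control-specific genes were Ccdc65, Nme5, Nme9, Ak8, Efhb, Spef1 and the neighbours Dydc1 and Dydc2, which share a region. Efhb, a protein inside the doublets, had folds of 9.32 in AAV-GFP 1 and 4.76 in AAV-GFP 2. Ccdc39, the axonemal ruler that positions inner arms, had 13.3, 10.1 and 6.08 in AAV-GFP 1, AAV-GFP 2 and AAV-Cre 2 and no peak in AAV-Cre 1. Of the 53 genes with a region in both controls, 8 (15.1%) had none in either AAV-Cre library, beside 11.8% of members and 5.8% of all genes.

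Among the regulators, Rfx2 had folds of 14.2, 9.62, 6.87 and 9.3 in AAV-GFP 1, AAV-GFP 2, AAV-Cre 1 and AAV-Cre 2, with both controls above both AAV-Cre values. By rank its groups overlapped, with percentiles of 1.49, 10.4, 25.3 and 9.63 in the same order. Rfx3 had a peak in AAV-GFP 2 only, at 4.23. Mcidas and Gmnc, which start the multiciliated programme in precursor cells, had no region in any library. Genes of the primary cilium and of intraflagellar transport, which neurons use too, stood apart in level. Of 50 such genes, 41 (82%) had a region in all 4 libraries, against 42.1% of all genes. Sstr3 and Gpr161 were control-specific (4%, against 2.98%). Among genes of this list with a region in both controls, the median percentile was 6.33 in AAV-GFP 1 and 8.62 in AAV-GFP 2. For members it was 17.5 and 21.9, and for all genes 13.1 and 21.8.

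Marker lists give the setting of these signals. Of 18 ependymal and tanycyte markers, 5 (27.8%) had a region in all 4 libraries, against 42.1% of all genes. These were Mia, Enkur, Tppp3, Rax and Col23a1. A control-specific call fell on 0 of the 18, and 8 (44.4%) had no region, against 41.9% of all genes. Among these 8 were the ependymal genes Ccdc153, Tmem212 and Rarres2. In AAV-GFP 1, AAV-GFP 2, AAV-Cre 1 and AAV-Cre 2, 9, 7, 7 and 7 of the 18 had a region. Of the 17 neuron markers 6 (35.3%) had a region in all 4 libraries. The 2 control-specific ones were Syp and Slc17a6 (11.8%, against 2.98% of all genes). Of 6 choroid plexus markers 5 had no region and Kl had a peak in AAV-Cre 2 only. Astrocyte markers had a region in 7, 5, 3 and 4 of 10 genes and oligodendrocyte markers in 5, 4, 0 and 3 of 10, in the same order of libraries. Microglial and endothelial lists each had a region in 1 of 10 genes in every library.

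Neuron, astrocyte and oligodendrocyte lists therefore held fewer regions in the AAV-Cre libraries, as the members and all protein-coding genes did. The shares of all genes were 56.4%, 52.5%, 46.1% and 47.5% in the same order of libraries. The marker lists were not counted in peak lists of equal length. The counts of the ependymal list differed by at most 2 genes between libraries. A gene-end region does not name the cell that carries it, and 5 of the 18 ependymal markers are also in the motile cilium list. Whether marker regions also lie at ends of other genes is not given here. Which cells gave the member regions, ependymal or neuronal, was not tested.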

How the data were processed

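ATAC-seq peak lists of 4 PVH libraries, 2 AAV-GFP and 2 AAV-Cre, were used, with 2 group lists. The tools, per the submitters' processing notes, were Bowtie2, MACS2, FastQC and Trim Galore, and the genome was mm10. The sources used here do not give tool versions, filters on reads, any transposase shift or the handling of reads that fit several places. The authors deposited for each peak a start, end and summit position in bp, a score, a fold enrichment (a ratio of signal to background), −log10 p and −log10 q. The lowest deposited −log10 q was 1.3 to 1.31 in each library list, near a q of 0.05. No replicate depth can be derived, and a longer list can by itself make a region specific, so counts were repeated on lists of equal length.

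Peaks sharing at least 1 bp were merged, and regions were assigned to genes by windows of 1 kb around both ends in the RefSeq gene table, which gives no exons, so exonic or intronic position was not analysed here. The strongest peak of a library by −log10 p stood for it in a region. Starts, strands and promoter sequences came from the RefSeq promoter table (GRCm38.p6), which held 65 of the 80 members, and 70 promoters. Python 3.11.15, pandas 2.3.3 and numpy 2.4.6 were used. The assignment and call steps were tested on simulated data. The members and lists were chosen with earlier results of these data known.

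Genes were named by rule: Foxj1 and Mlf1, all group-specific and all Dnah members, the 6 strongest and 6 weakest shared regions by mean percentile, the 5 largest rank differences each way and the 3 widest regions. Further members and the list genes named were chosen after their values were seen. Labels do not say that equal replicate numbers share an animal. Alternatives were a −log10 q minimum, equal lengths, other windows, other overlaps, the group lists, rank measures and leaving out a library.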

Additional observations from a re-analysis of the deposited data

How the results depend on the processing

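The members without a region were 14 with windows of 2500 bp, against 22. Control-specific members, 6 as reported, were 11 at −log10 q of at least 5, 3 with start windows (65 members) and 19 in the authors' group lists. Those group lists held 28592 AAV-GFP and 16614 AAV-Cre peaks, so a single longer list stood against a shorter one. Members had a region in 63.8% and 42.5% of cases there, against 51.1% and 42.1% of all genes. Control-specific calls over all genes are not given for the q minimum or the group lists. Cre-specific members, 1 as reported, were 2 at equal length, with windows of 2500 bp and in the group lists. Members in all 4 libraries were 21 of 64 without genes that share a region with another gene end, against 32 of 80. That filter removes only members with a region. Leaving out each library in turn gave 31 to 39 members in all remaining libraries, 22 to 26 without a region, 6 to 13 control-specific and 1 to 2 Cre-specific members, where fewer libraries make each call easier to meet. The median rank difference ran from 7.03 to 17.6 without a library. It was 10.1 by fold, 11.5 with the widest peak, 2.73 among shared regions and 0.417 at equal length. With a replicate block it was 12.3 by construction, since the same differences are averaged, and the labels do not tie equal numbers to an animal. Windows of 500 bp, a required peak of the library in the window and merging at 100 bp left each count within 1.5 times its reported value. Without read counts, depth is unknown and no interval can be given.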
